A study of Mus musculus with 6 samples.

Results

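Genes that p53 switches on, together with the genes that hold p53 in check, were followed in mouse embryonic stem (ES) cells with and without Sirt1. The list held 31 genes, taken by exact gene symbol, and 29 of them were measured among 18193 named genes on the array. The gene of p53 itself and 1 other listed gene were not analysed here, so every value below is for a regulator, relative or target of p53. All cells were of the R1 line, from (129X1 x 129S1)F1 embryos, and both genotypes were cultured on 0.1% gelatin, in medium with 15% serum and 100 IU/ml of the cytokine LIF, which keeps ES cells undifferentiated. One group carried intact Sirt1 (Sirt1+/+, 3 arrays) and the other lacked it (Sirt1-/-, 3 arrays). No other allele or agent is named. The labels give 1 source per genotype and leave unsaid whether its 3 samples were grown as separate cultures or whether the knockout is a single clone. The p-values therefore speak for the spread among these 6 samples alone, which may be technical. The effect of Sirt1 loss and any other difference between the sources cannot be told apart.

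The protein p53 is a transcription factor that damaged DNA and other stresses stabilise. It binds DNA as a tetramer and activates genes for cell cycle arrest, DNA repair and cell death, and also the gene of its own ubiquitin ligase, Mdm2, which closes a negative feedback loop. Sirt1 is an NAD-dependent deacetylase, and p53 is one of its known substrates. ES cells contain much p53, which lowers Nanog expression when they are damaged or differentiate. The comparison therefore asks how the transcripts around p53 stand in cells that lack this deacetylase.

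Because p53 acts through a 10-base element (decamer), most often present as a pair, the start sites of the measured genes were searched for it. RefSeq windows from 250 bases before to 50 after the gene start (GRCm38.p6) covered 21 of the 29 genes, several with more than 1 start. The p53 decamer consensus, searched by exact match and identical on both strands, was found for 9 of the 21, against 9.55% of all 27025 genes with a window. A pair of adjacent decamers, with a spacer of 0 or 1 base, the central C and G of both kept and at most 3 of 20 letters off, was found for 6 of the 21, against 3.27% of all genes. These genes are listed because they are known p53 targets, so the match is a description, and p53 also binds outside these windows. The 4 pairs that lie near a gene called changed below are shown to compare their fit, with capitals for letters that match the consensus and lower case for those that do not.
Bbc3 (chr7:16309486-16309505, strand +): ctGCAAGCCCcGACTTGTCC
Aen (chr7:78895937-78895956, strand +): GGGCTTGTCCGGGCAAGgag
Ccng1 (chr11:40755462-40755481, strand -): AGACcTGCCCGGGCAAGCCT
Ckap2 (chr8:22186003-22186022, strand -): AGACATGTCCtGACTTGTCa
The pair of Ccng1 was 1 letter off, that of Ckap2 2 letters off, and those of Bbc3 and Aen 3 letters off. The Ccng1 pair lay at positions -195 to -176 from the start, that of Ckap2 at -203 to -184 and that of Bbc3 at -97 to -78. That of Aen lay at -121 to -102 of one start and at 11 to 30 of another.

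Longer upstream sequence is shown for Mdm2 and Gadd45a, which rose, for Ckap2, which fell, and for Ccng1, whose probe sets disagreed. The rise of Mdm2 was only just past the threshold and was lost under 10 of 14 other settings. The matched decamer or pair of decamers is in capitals. The Ccng1 sequence ends at position -24 from the start and the others at -1.
Mdm2 (chr10:117710759-117711008, strand -): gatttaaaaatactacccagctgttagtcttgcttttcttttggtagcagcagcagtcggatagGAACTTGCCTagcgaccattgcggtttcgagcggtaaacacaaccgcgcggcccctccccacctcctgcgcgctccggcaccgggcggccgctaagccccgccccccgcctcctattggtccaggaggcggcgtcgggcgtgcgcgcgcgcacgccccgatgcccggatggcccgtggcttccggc
Gadd45a (chr6:67037408-67037657, strand -): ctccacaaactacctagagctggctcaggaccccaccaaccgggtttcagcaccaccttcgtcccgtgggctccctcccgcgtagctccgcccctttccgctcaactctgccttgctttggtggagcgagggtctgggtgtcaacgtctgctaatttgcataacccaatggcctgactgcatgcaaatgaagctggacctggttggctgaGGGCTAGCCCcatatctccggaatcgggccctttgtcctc
Ccng1 (chr11:40755310-40755536, strand -): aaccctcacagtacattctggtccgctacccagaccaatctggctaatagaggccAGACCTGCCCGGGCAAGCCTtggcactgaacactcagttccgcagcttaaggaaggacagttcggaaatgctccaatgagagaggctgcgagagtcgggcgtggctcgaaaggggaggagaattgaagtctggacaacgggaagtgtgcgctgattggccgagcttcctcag
Ckap2 (chr8:22185820-22186069, strand -): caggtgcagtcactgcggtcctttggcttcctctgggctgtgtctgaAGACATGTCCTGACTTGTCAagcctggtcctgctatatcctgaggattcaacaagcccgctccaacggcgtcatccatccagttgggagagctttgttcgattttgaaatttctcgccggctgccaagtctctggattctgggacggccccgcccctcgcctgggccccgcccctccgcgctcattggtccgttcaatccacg
Matches stood near genes of both directions, each taken on its brightest probe set. Of 6 genes with a window that rose, 4 held a decamer or a pair, as did 3 of 5 that fell and 4 of 10 that did not pass the test. Ccng1 is among the 3. Over all genes with a window 9.55% held a decamer and 3.27% a pair, and the share with either was not counted. The windows of Btg2 and Dram1, which had large changes, held neither, which says only that these letters are not in these windows.

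Levels are the authors' log2 array intensities, summarised per probe set (a group of short probes for a transcript) with the RMA method, and each gene was read on its brightest probe set. Calls come from limma, a linear model that shares information on spread among genes. The arrays were alike, with medians of 4.51 to 4.57 log2 units and Pearson's r across genes of 0.997 to 0.998 within and 0.989 to 0.991 between genotypes (genes are no independent replicates). Sirt1 had wild-type levels of 10.12, 10.13 and 10.23 and knockout levels of 8.02, 7.94 and 8.20, which is 4.31-fold lower (limma with Benjamini-Hochberg adjusted p = 3.98e-05; exact two-sided permutation p = 0.1, the smallest that 3 against 3 arrays allow). The ES cell label was borne by Pou5f1 (12.29 and 12.39), Sox2 (12.50 and 12.20, wild type before knockout) and Nanog, whose level was 11.91 in wild type and 0.90 lower in knockout. Over all genes 30.0% were called, 12.5% higher and 17.5% lower. Of 12 ES cell markers 8 fell and 4 did not pass (limma, Benjamini-Hochberg adjusted p under 0.05), and their summed linear level was 40412 to 40765 in wild type and 31098 to 32081 in knockout. Of 18 extraembryonic endoderm markers 11 fell, Lamb1 among them, with summed levels of 4376 to 4476 and 2813 to 2961. Of 13 fibroblast markers 2 rose and 3 fell, or 38.5% called. Their sum was 1022 to 1115 in wild type and 1786 to 1870.1 in knockout, and without Vim, which read 9.22 and 10.51, it was 450.4 to 501 and 358 to 396. Of 9 neural markers 3 rose and 2 fell (467 to 479 and 579 to 601, and without Msi1 297 to 319 and 316 to 338), and the arrays of the 7 measured mesoderm markers overlapped (248 to 291 and 268 to 299.8), with 0 at an unadjusted p under 0.05 in limma. Of all these markers, 1 fibroblast and 1 neural gene stayed under every array's lower quartile, and the part of any such shift in the values below was not tested. In bulk RNA, fewer cells of a type and less RNA per cell cannot be told apart. The Actb control, a sign of RNA integrity, read higher at its 3' than at its 5' end by 0.98 ± 0.07 and 0.90 ± 0.01 (SD, n = 3 each).

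Knockout cells had higher levels of several p53 targets that promote cell death or growth arrest and lower levels of others, so the list as a whole did not move one way. Of the 29 genes 8 rose, 6 fell and 15 did not pass (limma, Benjamini-Hochberg adjusted p under 0.05 over all 18193 genes), or 48.3% called, while 30.0% of all genes were called. By direction, 12.5% of all genes rose and 17.5% fell. These shares include dim genes, in which a change may go undetected. Of the 29 genes, 28 remained when the dimmest 40% of genes were left out. In that fit 5879 genes were called, against 5462 of all 18193, so a larger share of the brighter genes was called. The shares of all genes given here and below are not matched for level. They may overstate how far a list stands out. The median log2 change (knockout minus wild type) was -0.06 over the 29 genes and -0.01 over all genes, and the median absolute change was 0.20 against 0.14. The 3 arrays of each genotype did not overlap for 22 of the 29 genes, and for 43.8% of all genes. Knockout arrays lay above for 10 and below for 12 of the 29, against 19.1% and 24.7% of all genes. Most changes were small: 2 of the 29 reached 2-fold, Tnfrsf10b and Dram1, as did 1.93% of all genes. Against the median gene level of 5.83, Tnfrsf10b was dim in wild type (mean 4.59, and 5.91 in knockout). Dram1 was dim in both genotypes (means of 5.65 in wild type and 4.56 in knockout). Leaving out knockout replicate 2 or knockout replicate 3 left 5 genes that rose, and leaving out wild-type replicate 1 left 3 that fell. Over all genes 4380, 4407 and 4104 were then called, in that order, against 5462 with every array.

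**Figure D1:**
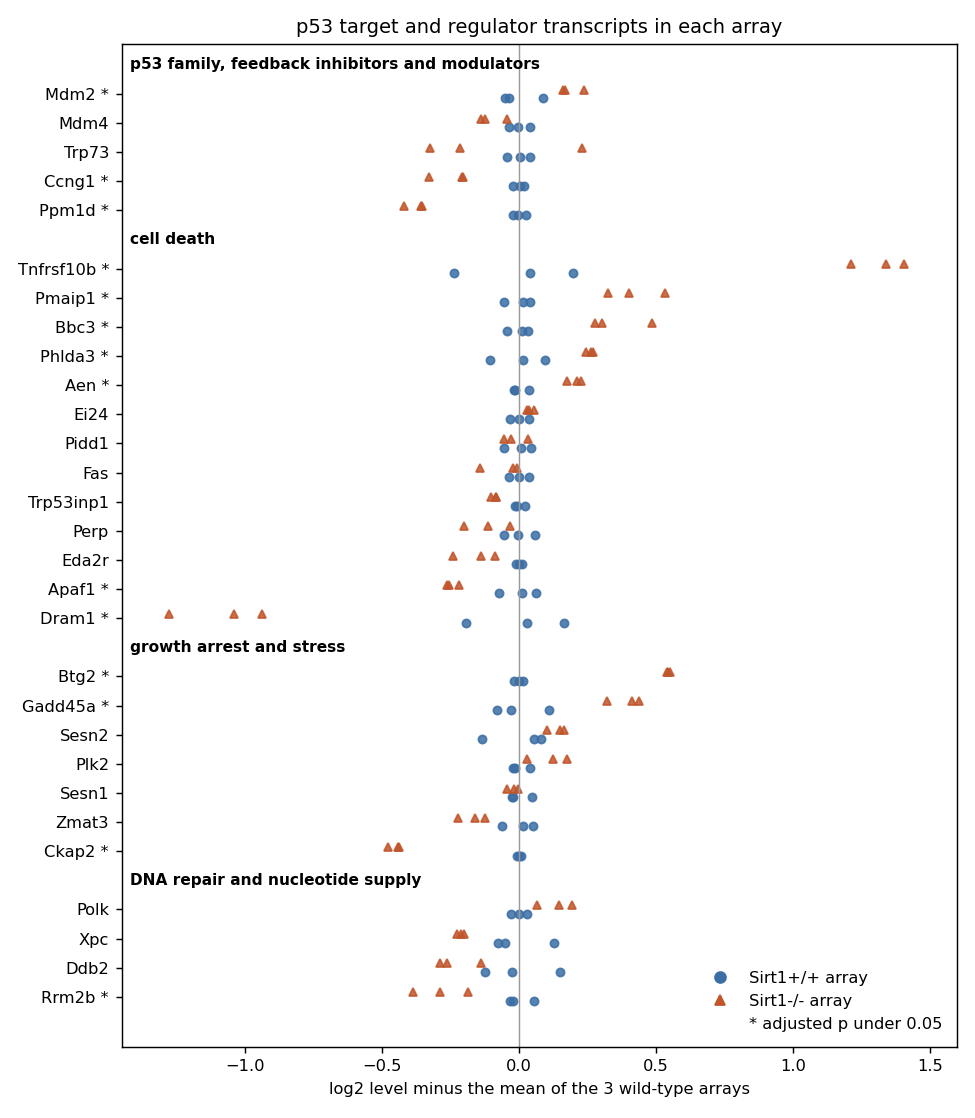
Log2 level of each of 29 genes in every array, minus the mean of its 3 wild-type arrays (x axis), with circles for Sirt1+/+ and triangles for Sirt1-/- arrays, genes grouped by role and an asterisk at a limma adjusted p under 0.05. Tnfrsf10b and Btg2 stand right of the wild-type arrays and Dram1 and Ckap2 left of them, while most other genes lie within 0.5 log2 units.

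The regulators and relatives of p53 did not share a direction. Of 5 measured genes, Mdm2 rose, and the phosphatase Ppm1d and, on its brightest probe set, cyclin G1 (Ccng1) fell. The share called was 60%, against 30.0% of all genes (12.5% higher, 17.5% lower). Ppm1d (Wip1), a p53-induced phosphatase that switches off p53 and the kinases above it, had wild-type levels of 7.89, 7.85 and 7.86 and knockout levels of 7.45, 7.51 and 7.51. All 3 knockout arrays lay below all wild-type arrays, with a log2 change of -0.38 (SE 0.05), which is 1.30-fold lower (limma, adjusted p = 0.00144). A dimmer Ppm1d probe set read -0.09 and did not pass (adjusted p = 0.486, over all probe sets).

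Mdm2 had wild-type levels of 9.68, 9.66 and 9.80 and knockout levels of 9.95, 9.87 and 9.88. The groups did not overlap, and the rise of 0.19 (SE 0.06) was only just past the threshold (limma, adjusted p = 0.0495). The call was lost under 10 of 14 other settings, with adjusted p from 0.00154 to 0.267 over all of them, and without any 1 array other than wild-type replicate 3. A second bright Mdm2 probe set read 9.12 ± 0.03 and 9.39 ± 0.06 (SD, n = 3 each), a change of 0.28 (adjusted p = 0.0188 over all probe sets). In that fit over all probe sets the brightest had an adjusted p of 0.0916. Another probe set was dim, with means of 3.12 and 3.05 and overlapping arrays. Mdm4, the relative of Mdm2 that blocks p53 without ligase activity, did not pass, at a difference of -0.10 (95% confidence interval -0.22 to 0.02; limma, adjusted p = 0.189).

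Ccng1 encodes cyclin G1, a p53 target that brings a phosphatase to Mdm2, and its probe sets disagreed. The brightest had wild-type levels of 10.80, 10.81 and 10.77 and knockout levels of 10.47, 10.59 and 10.59, a fall of 0.25 on the log2 scale (limma, adjusted p = 0.0140). The next read 10.49, 10.48 and 10.55 against 10.74, 10.78 and 10.78, a rise of 0.26 (adjusted p = 0.0177 over all probe sets). Both sets were free of overlap between genotypes, in opposite directions. The dimmest, at 8.92 and 8.69, differed by -0.23 without passing (adjusted p = 0.0596). The call on the brightest was lost without wild-type replicate 1 (adjusted p = 0.0522). These arrays give no single direction for Ccng1, and with the probe sets averaged the difference was -0.07 (adjusted p = 0.358). Of the 16 genes with several probe sets, Ccng1 was the 1 gene with calls in both directions. Trp73, a p53 relative, read 5.29 ± 0.04 and 5.18 ± 0.29 (SD, n = 3 each; adjusted p = 0.657), with overlapping arrays and a dimmer probe set at 0.41 (adjusted p = 0.0769).

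**Figure D2:**
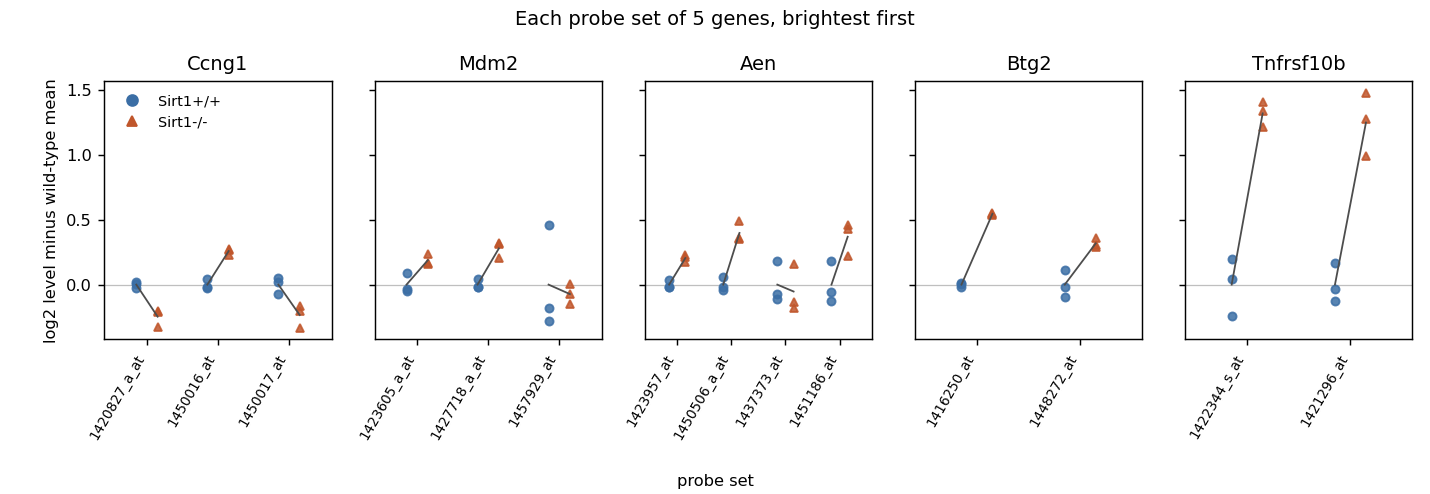
Log2 level of every probe set of Ccng1, Mdm2, Aen, Btg2 and Tnfrsf10b in each array, minus that probe set's wild-type mean (y axis), brightest probe set first, with lines joining the genotype means. Both probe sets of Tnfrsf10b and of Btg2 rose, whereas the 3 of Ccng1 read -0.25, 0.26 and -0.23.

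Among 13 measured cell death genes 5 rose, 2 fell and 6 did not pass. Called genes made up 53.8% of these and 30.0% of all genes (12.5% higher, 17.5% lower). The largest rise was that of Tnfrsf10b, the mouse death receptor for the ligand TRAIL. Tnfrsf10b had wild-type levels of 4.63, 4.35 and 4.79 and knockout levels of 5.80, 5.93 and 5.99. Every knockout array stood well above every wild-type array, and the change was 1.32 (SE 0.12), or 2.49-fold (limma, adjusted p = 0.000448). Only 0.187% of all genes rose more. Its other probe set gave 1.25 (adjusted p = 0.00118 over all probe sets).

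Both BH3-only genes of the list, whose proteins trigger the mitochondrial route of cell death, rose. Pmaip1 (Noxa) had wild-type levels of 9.82, 9.74 and 9.84 and knockout levels of 10.20, 10.33 and 10.13, a change of 0.42 (SE 0.07; limma, adjusted p = 0.00428). Bbc3 (Puma), whose paired decamers are printed above, read 7.69, 7.72 and 7.64 against 7.99, 8.17 and 7.96, a change of 0.35 (SE 0.07; adjusted p = 0.00915). Neither gene's groups overlapped.

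Smaller rises were seen for Aen, a nuclease of apoptosis, and Phlda3, an inhibitor of Akt signalling. Aen changed by 0.20 (SE 0.04; limma, adjusted p = 0.0152), from 9.53 ± 0.03 to 9.73 ± 0.03 (SD, n = 3 each), and by 0.40 on a second probe set. On its dimmest probe sets the changes were 0.37 and -0.05, and neither passed. Phlda3 went from 7.84 ± 0.10 to 8.10 ± 0.01 (SD, n = 3 each), a change of 0.26 (adjusted p = 0.0206). The Aen call was lost without knockout replicate 2 (adjusted p = 0.0550) or 3 (0.0525), and that of Phlda3 without any 1 array other than wild-type replicate 3 (0.0501 to 0.0652).

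Dram1, a lysosomal membrane protein that links p53 to autophagy, had the largest fall. It had wild-type levels of 5.45, 5.68 and 5.81 and knockout levels of 4.37, 4.71 and 4.61. The groups lay apart, with a change of -1.08 (SE 0.12), or 2.12-fold lower (limma, adjusted p = 0.00101), and 1.13% of all genes fell more. Apaf1, the scaffold of the apoptosome, fell from 8.78 ± 0.07 to 8.54 ± 0.02 (SD, n = 3 each), by 0.25 on the log2 scale (adjusted p = 0.0134). Without wild-type replicate 1 the Apaf1 call was lost (adjusted p = 0.0526). A dimmer Apaf1 probe set read -0.27 and did not pass (limma, adjusted p = 0.0916 over all probe sets).

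The other 6 cell death genes did not pass. The death receptor Fas was dim, with means of 3.14 and 3.08 under the arrays' lower quartiles (3.16 to 3.24), though not every array lay under them, and a change may go undetected there. The 95% confidence interval of the log2 change was -0.07 to 0.15 for Ei24, a membrane protein of the endoplasmic reticulum, and -0.14 to 0.11 for Pidd1, a death-domain scaffold. It was -0.26 to 0.03 for Perp, a desmosome protein, -0.19 to 0.01 for Trp53inp1, a p53 cofactor in stress, and -0.29 to -0.02 for Eda2r, a receptor of the tumour necrosis factor family. Trp53inp1 and Eda2r lay lower in all knockout arrays without passing (limma, adjusted p = 0.172 and 0.0784).

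Of 7 growth arrest and stress genes 2 rose and 1 fell. That is 42.9% called, against 30.0% of all genes (12.5% higher, 17.5% lower). Btg2, an antiproliferative cofactor of mRNA deadenylation, differed with little spread. It had wild-type levels of 7.96, 7.98 and 7.99 and knockout levels of 8.53, 8.52 and 8.52, a change of 0.55 (SE 0.04), or 1.46-fold (limma, adjusted p = 0.000271). The gap between the groups far exceeded the spread within them, and a second probe set rose by 0.32. Gadd45a, a stress-induced inhibitor of cell cycle progression, read 9.13, 9.18 and 9.32 against 9.53, 9.64 and 9.62, a change of 0.39 (SE 0.07; adjusted p = 0.00560), again without overlap.

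Ckap2, a spindle protein that p53 also induces, had wild-type levels of 10.96, 10.94 and 10.96 and knockout levels of 10.47, 10.52 and 10.51. Its change was -0.45 (SE 0.04), or 1.37-fold lower (limma, adjusted p = 0.000545). Ckap2 lies on chromosome 8, where 44.1% of 932 genes were called, 33.6% higher and 10.5% lower, and the median change was 0.08. Its fall thus ran against most called genes of its chromosome. No other measured gene of the list lies on chromosome 8.

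The sestrins, which damp mTORC1 signalling under stress, did not pass. The difference was -0.02 for Sesn1 (95% confidence interval -0.13 to 0.09) and 0.14 for Sesn2 (-0.03 to 0.31; limma, adjusted p = 0.196). The zinc finger RNA-binding protein Zmat3 lay lower in every knockout array, at 10.10 ± 0.06 and 9.93 ± 0.05 (SD, n = 3 each), and just missed the threshold (adjusted p = 0.0590). The difference for the kinase Plk2 was 0.11 (-0.02 to 0.24), with overlapping arrays.

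Of 4 DNA repair and nucleotide supply genes 1 fell and 3 did not pass. The share called was 25%, near the 30.0% of all genes (12.5% higher, 17.5% lower). Rrm2b, the p53-induced subunit of ribonucleotide reductase, fell from 7.67 ± 0.05 to 7.39 ± 0.10 (SD, n = 3 each), by 0.29 on the log2 scale (limma, adjusted p = 0.0173). A dimmer Rrm2b probe set fell by 0.47 (adjusted p = 0.0122 over all probe sets). The call was lost without wild-type replicate 1 or 3 or knockout replicate 3 (adjusted p = 0.0513 to 0.0561), and with all its probe sets averaged (0.106). The differences were -0.21 (adjusted p = 0.0505) and -0.23 (0.0865) for Xpc and Ddb2, damage sensors of nucleotide excision repair, and 0.13 (0.105) for the bypass polymerase Polk. A second Ddb2 probe set passed, at -0.28 (adjusted p = 0.0422 over all probe sets). The arrays of these 4 genes did not overlap, 3 lower and 1 higher in knockout, as was so for 24.7% and 19.1% of all genes.

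**Figure D3:**
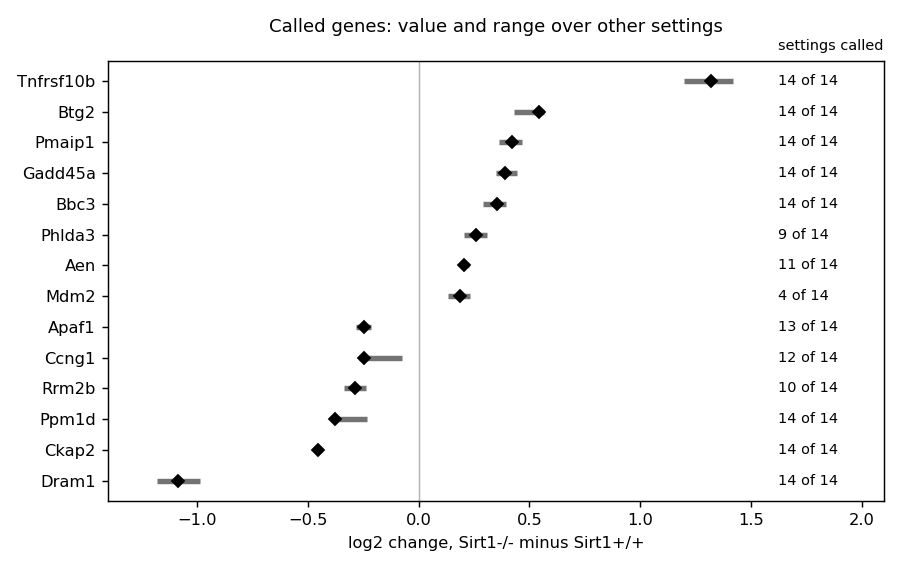
Log2 change of the 14 called genes (diamonds, knockout minus wild type) with the lowest to highest value over 14 other settings (bars) and the number of settings that kept the call. Tnfrsf10b, Btg2, Pmaip1, Gadd45a, Bbc3, Ppm1d, Ckap2 and Dram1 were called in all 14, and Mdm2 in 4.

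Genes that act on p53 changed both ways, as did genes at large. Of 19 kinases and sensors of DNA damage 3 rose and 6 fell (median log2 change -0.16). Called genes made up 47.4% of these and 30.0% of all genes (12.5% higher, 17.5% lower). Atr and Atm, the kinases that start the damage response, fell by 0.63 and 0.48 on the log2 scale, and Chek2, which Atm activates, by 0.49 (limma, adjusted p = 0.000613, 0.00157 and 0.00170). Dimmer Atr probe sets read -0.01 and -0.04, while that of Atm read -0.48. Nbn, of the complex that binds broken ends, rose by 0.64, the adaptor Trp53bp1 by 0.37 and the clamp protein Rad9a by 0.29 (adjusted p at most 0.00964).

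Of 26 measured modifiers and cofactors of p53, 6 rose and 8 fell (median 0.04). That is 53.8% called, against 30.0% of all genes (12.5% higher, 17.5% lower). Cdkn2a, which encodes Arf, an inhibitor of Mdm2, and Ink4a, had wild-type levels of 5.11, 5.09 and 5.30 and knockout levels of 6.96, 7.09 and 7.20. Its rise of 1.91 (limma, adjusted p = 5.90e-05) exceeded that of every gene of the p53 list. The annotation does not say which of these transcripts its single probe set reads. The ubiquitin ligase Rchy1 rose by 0.27 and the methyltransferase Smyd2 by 0.23. Ppp1r13b (Aspp1), which steers p53 to death genes, fell by 0.78, Pml, the scaffold of nuclear bodies where p53 is modified, by 0.76, and Wrap53, whose gene overlaps that of p53 in antisense orientation, by 0.50 (adjusted p at most 0.000783). Dimmer Pml probe sets read -0.58, which passed, and 0.11, which did not.

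Of 33 measured further p53 targets 8 rose and 8 fell (median 0.00443). The share called was 48.5%, against 30.0% of all genes (12.5% higher, 17.5% lower). Bid, which carries death receptor signals to mitochondria, rose by 0.51, the ubiquitin ligase Siah1a by 0.42 and the AMPK subunit Prkab1 by 0.33 (limma, adjusted p at most 0.00327). Siah1a lies on chromosome 8. The phosphatase Ptpn14, a repressor of Yap, fell by 0.84, the growth factor Tgfa by 0.82, and the ubiquitin ligase subunit Fbxw7 by 0.72 (adjusted p at most 0.00250). Tgfa did not pass on its dimmer probe sets (0.10 and 0.11), nor did Ptpn14 (-0.30 and -0.07). Cdkn1a (p21), the main arrest gene of p53, was chosen after its values were seen: it read 9.27, 9.27 and 9.30 against 9.45, 9.48 and 9.50, a rise of 0.20 (adjusted p = 0.0157).

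Among 21 measured cell cycle genes that p53 represses through the DREAM complex, 1 rose and 8 fell (median -0.11). That is 42.9% called, against 30.0% of all genes, of which 12.5% rose and 17.5% fell. The kinesins Cenpe and Kif23 fell by 0.49 and 0.41 and the kinetochore protein Cenpf by 0.28 (limma, adjusted p at most 0.00542). Kif23 did not pass on its dimmer probe sets (-0.23 and 0.13). The replication helicase subunit Mcm5, on chromosome 8, rose by 0.22 (adjusted p = 0.00904).

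Of 19 other genes of the Bcl-2 family and the apoptosome 3 rose and 8 fell (median -0.08). Called genes made up 57.9% of these and 30.0% of all genes (12.5% higher, 17.5% lower). The BH3-only gene Hrk rose by 1.04 on its brighter probe set (limma, adjusted p = 0.000133) and its other read 0.18 without passing. The pore former Bak1 rose by 0.74 and caspase 9 (Casp9), which Apaf1 activates, by 0.28 (adjusted p = 0.0112 and 0.0177). Casp9 did not pass on its dimmer probe sets (0.22 and 0.07). Bcl2l11 (Bim), also BH3-only, fell by 0.71, and the mitochondrial protease Htra2 by 0.69 (adjusted p at most 0.00361). The dimmest Bcl2l11 probe set read 0.30 without passing. The survival protein Mcl1, which Noxa binds, read 12.28, 12.29 and 12.22 against 11.65, 11.58 and 11.62, a fall of 0.65 that all 6 of its probe sets shared in direction (adjusted p = 0.000239). Proapoptotic genes were thus found among both the higher and the lower.

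**Figure D4:**
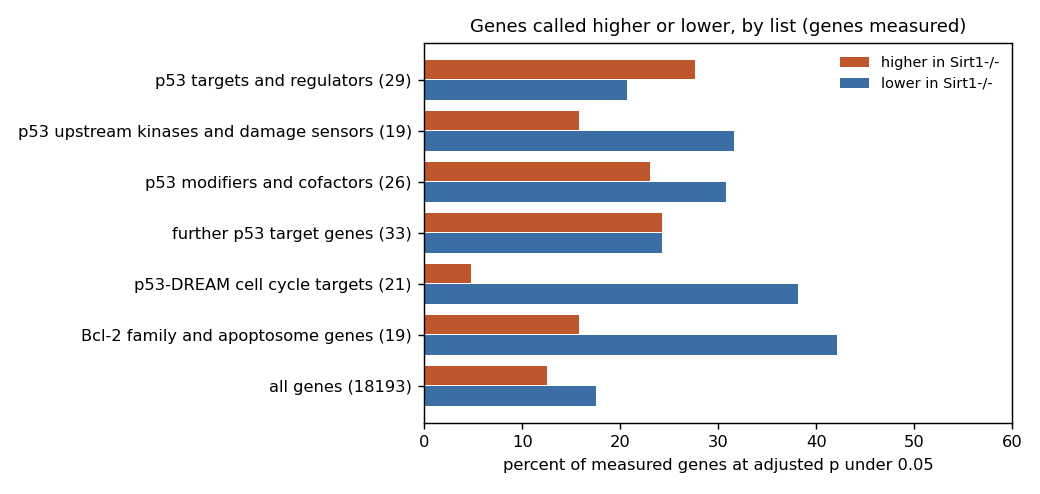
Percent of measured genes called higher or lower in Sirt1-/- cells (limma adjusted p under 0.05) for the p53 list, 5 further lists and all genes, with the number measured in brackets. Of the p53 list 8 of 29 were higher and 6 lower; of the DREAM targets 1 of 21 was higher and 8 lower.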

How the data were processed

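Total RNA from 3 Sirt1+/+ and 3 Sirt1-/- samples (100 ng each) was labelled and read on Affymetrix arrays, 1 for each sample. The authors deposited log2 values. Per the submitters' processing notes, these were made with Partek 6.5 and RMA. Their range gave the log2 scale, and no centring was added. RMA equalises the arrays' distributions, so a change shared by most genes would not be seen. The table held 45101 probe sets: 64 controls, 34945 with 1 symbol, 932 with several and 9160 with none. The last 2 kinds were not used. For each gene the probe set of highest mean level across all 6 arrays was used. Levels depend on the probes, so no test compares different genes' levels, and summed marker levels are weighted towards bright probe sets.

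The genotypes were compared in R 4.3.3 by limma 3.58.1 (eBayes after lmFit, two-sided), with Benjamini-Hochberg adjustment over 18193 genes. Chromosomes came from RefSeq by Entrez identifier (18031 genes matched on GRCm38.p6). The number of arrays limits precision. The fit was tested on simulated data in which few genes were shifted. It called 4% of genes shifted by 0.25 on the log2 scale, 80% at 0.5 and 98% at 1. Many more genes were called in the real data, so these shares may differ there.

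The genes, lists and tests were chosen with earlier results of these data known. All measured list members were named, and in each of 5 pathway lists up to 3 of the largest changes in each direction that passed. Named markers were Pou5f1, Nanog, Sox2 and the brightest of each other list (Eomes for mesoderm, Msi1 for neural). No explanation was tested.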

Additional observations from a re-analysis of the deposited data

How the results depend on the processing

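Of the 14 called genes, 8 kept call and direction in all 14 other settings (6 of them leaving out 1 array each) and 6 lost the call in at least 1; of the 15 others, 8 passed in at least 1. Without 1 array, called genes ranged from 4104 to 4753 of all genes (5462 with every array), risen p53 genes from 5 to 8, fallen ones from 3 to 7 and the list's median from -0.0765 to -0.0247. An adjusted p under 0.01 left 3356 called genes, with 5 risen and 3 fallen in the list. Without the dimmest 40% of genes, where fewer genes are tested, 5879 genes were called, with 9 risen and 10 fallen in the list. An intensity trend and robust prior called 6449 genes, with 9 risen and 12 fallen in the list (cause not tested). The mean of all probe sets moved the median to -0.0104. With the replicate number as a block, 4700 genes were called, 6 risen and 6 fallen in the list, and Mdm2 (adjusted p = 0.0979 in limma) and Aen (0.0562) were lost. Same-numbered arrays were not shown to pair (correlations of deviations 0.0515, -0.0865 and 0.198). Of 6 arrays 3 correlated best with their own number, and so few arrays cannot exclude pairing.

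Small changes turned sign, and the cause was not tested. Pidd1 read 0.0214 after repeated quantile normalization, 0.00251 with centred arrays, 0.00640 without wild-type replicate 2 and 0.00219 without knockout replicate 2. Trp73 read 0.151 and Sesn1 0.0320 with probe sets averaged; Trp73 read 0.00666 without knockout replicate 2 and Sesn1 0.00163 without wild-type replicate 3. The lowest values without 1 array were -0.271 for Trp73, -0.0430 for Pidd1 and -0.0347 for Sesn1. Dimmer probe sets read 0.406 for Trp73, 0.111 and 0.0408 for Sesn1, -0.0530 for Aen, 0.258 for Ccng1, -0.0728 for Mdm2, 0.0856 for Mdm4, -0.0368 for Polk and 0.0506 for Rrm2b.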
